A study of Mus musculus with 147 samples.

Results

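The renin-angiotensin system was followed here through 9 genes in single renin cells of the mouse kidney: Ren1, Agt, Ace, Agtr1a, Agtr1b, Enpep, Mme, Anpep and Atp6ap2. They were taken by symbol, and all 9 were among the 35438 genes of the count tables. WT renin cells came from Ren1c+/+ Ren1c-YFP mice and Renin-null cells from Ren1c-/- Ren1c-YFP mice, Ren1c being the renin allele of this strain and Ren1 its symbol in the count tables. Both were adult mice on C57BL/6 in which YFP is made wherever the Ren1 promoter region of the transgene is active, and the mice with the null allele had received saline injections as newborns. YFP-positive kidney cells were sorted, captured as single cells in the wells of Fluidigm C1 chips and sequenced as full-length cDNA, giving 51 WT wells, all from the same capture, and 96 Renin-null wells from several other captures. The Renin-null wells were sequenced as 2 libraries of 48 wells each, named YFP1 and YFP2. The sort keeps whatever cell carries YFP, and both genotypes pooled cells of more than a single mouse.

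The captures are known from the study's methods, but the labels tie no Renin-null well to a capture and no well to a mouse, so each genotype counts as 1 sample. No test between genotypes was possible, no p-value is given, and differences of capture or sequencing library cannot be told apart from those of genotype. Intervals cover counting error only. The reads carried no molecular identifiers, so PCR copies were counted as separate. A level is given in CPM, counts scaled to a total of 1000000 in a well or in all wells of a genotype. Quality wells are those with at least 100000 counts, at least 1000 genes with a count and at most 25% of counts in mitochondrial genes, which left 15 WT and 57 Renin-null wells. Wells held 26401 to 17124854 counts in WT (median 1525972) and 3628 to 14505243 in Renin-null (median 4107950). Mitochondrial genes took a median of 60.4% of counts in WT wells and 12.4% in Renin-null wells.

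Renin cleaves angiotensinogen, the product of Agt, into angiotensin I, and angiotensin-converting enzyme, the product of Ace, turns this into angiotensin II. Angiotensin II acts mainly through the type 1 receptor, which mice encode in the paralogs Agtr1a and Agtr1b, and in the kidney it constricts arterioles and restrains renin release. Aminopeptidase A (Enpep), aminopeptidase N (Anpep) and neprilysin (Mme) degrade angiotensin peptides, and Atp6ap2 encodes the (pro)renin receptor, which is also an accessory subunit of the vacuolar proton pump.

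Smooth muscle and pericyte markers had the highest sum of the 7 marker lists in both genotypes, but not every well held them at a high level. The 11 markers of that list all had counts and summed to 23136 CPM in the WT and 26785 CPM in the Renin-null wells, with Rgs5, a regulator of G protein signaling typical of pericytes, the most abundant at 11102 and 14156 CPM. In quality wells the sum had a median of 25346 CPM in WT (lowest 4622 CPM) and of 31513 CPM in Renin-null cells, where wells 7, 19, 23, 51, 59 and 72 held only 38.6 to 172 CPM. Of its defining genes, Acta2 had 4349 and 4291 CPM, Myh11 2449 and 1637 CPM and Pdgfrb 503.5 and 83.4 CPM. Akr1b7, an aldo-keto reductase gene known as a renin cell marker, stood at 4528 CPM in the WT and at 2011 CPM in the Renin-null wells. It had a count in 51 of 51 and in 94 of 96 wells.

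Other kidney cell types were also present, at a higher summed level in Renin-null wells for each of the 6 other lists. Podocyte markers summed to 109 CPM in the WT wells (6 of 8 genes with a count) and to 907 CPM in the Renin-null wells (8 of 8). Proximal tubule markers summed to 208 CPM (19 of 20) and 1023 CPM (20 of 20), and those of the loop, distal tubule and collecting duct to 20.0 CPM (11 of 12) and 166 CPM (11 of 12). Fibroblast markers summed to 173 CPM (6 of 6) and 1159 CPM (6 of 6), endothelial markers to 40.4 CPM (6 of 10) and 268 CPM (10 of 10), and macrophage markers to 0.985 CPM (2 of 8) and 4.36 CPM (5 of 8). The most abundant gene of these lists was Synpo in WT and Cdkn1c in Renin-null wells for podocytes, Acsm2 in both for the proximal tubule, Scnn1g and Slc12a1 for the later tubule, Col1a2 and Col3a1 for fibroblasts, Emcn in both for endothelium and Ptprc in both for macrophages. Defining markers at 0 included Cdh5, Adgre1 and C1qa in WT and Adgre1 in Renin-null wells. The part of these cells in the ratios below was not tested.

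Across the genome, levels in Renin-null wells were mostly higher. The log2 ratio of summed CPM, Renin-null over WT, had a median of 1.17 over the 18720 genes with more than 3 counts in either genotype. Of these genes, 52.4% were higher by 2-fold or more and 18.5% lower by 2-fold or more in the Renin-null wells. In quality wells alone the shares were 51.6% and 20.1%, with TMM factors over all wells 43.1% and 27.2%, and with median-of-ratios size factors 41.4% and 29.7%. Against this background, 8 of the 9 genes had a ratio. Ren1, Agtr1a and Atp6ap2 were at least 2-fold lower, Ace, Agtr1b, Mme and Anpep at least 2-fold higher, and Enpep was neither. Ren1 is the gene deleted in the Ren1c-/- mice, so its place among the lower genes was set by the design. The same 3 and 4 counts were found in quality wells. The 4 higher genes against the 8 with a ratio sit close to the background share.

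**Figure D1:**
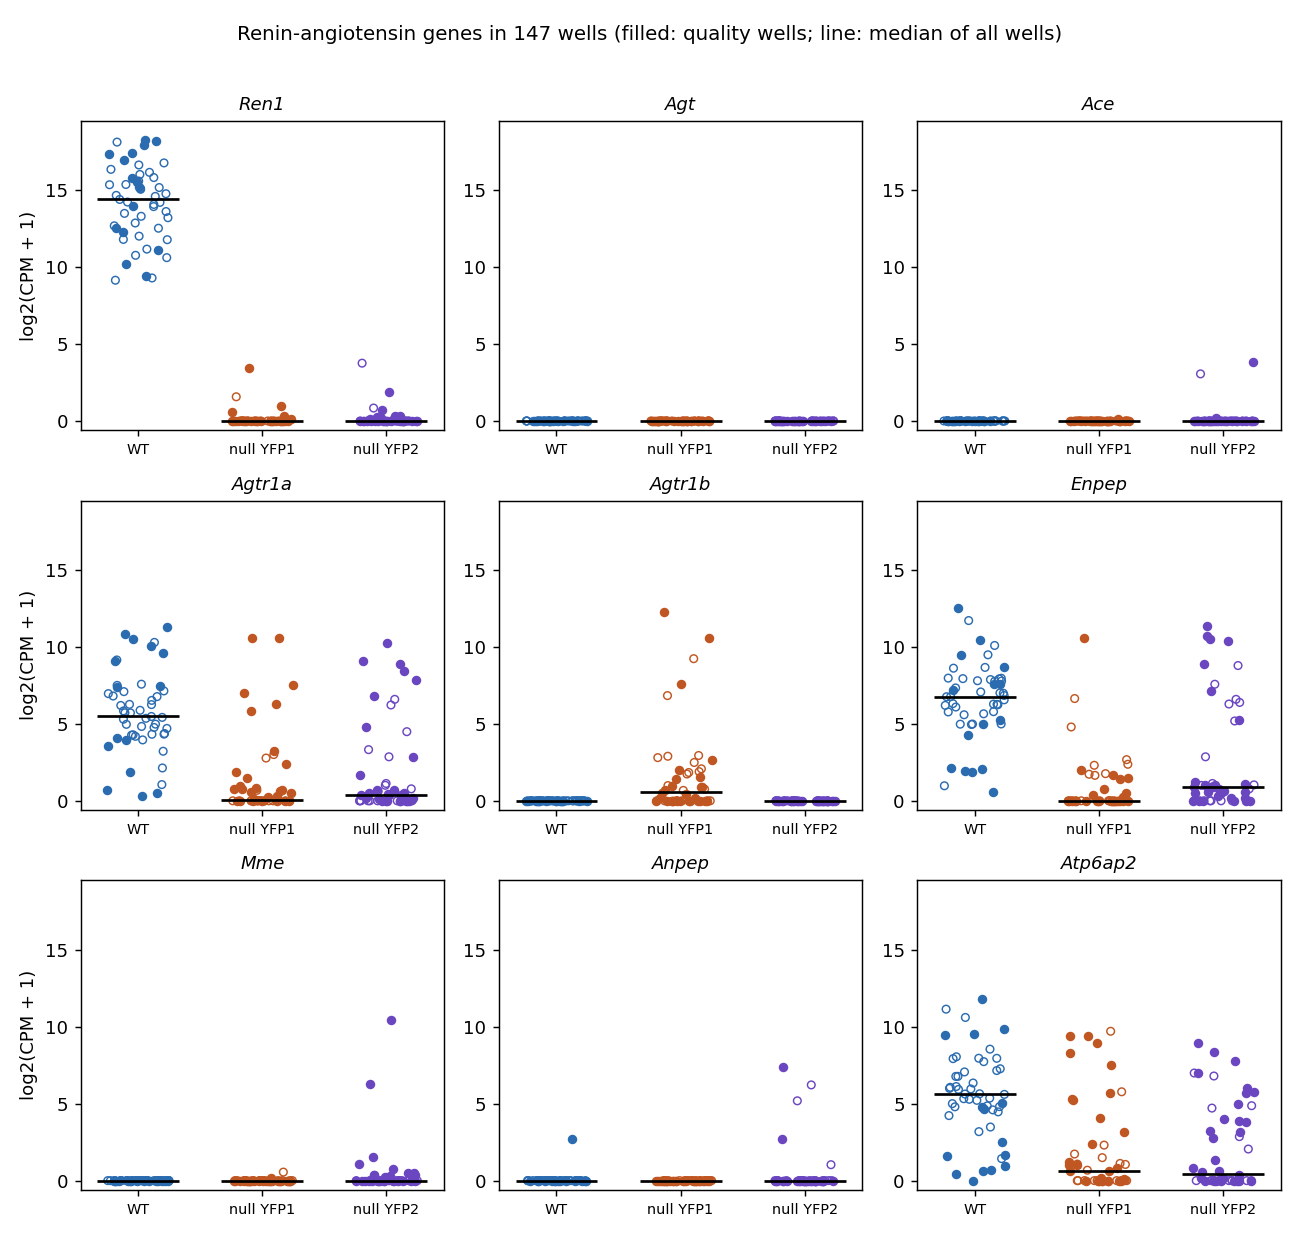
Level of each gene in each well as log2(CPM + 1), for 51 WT wells, 48 Renin-null wells of YFP1 and 48 of YFP2; filled points are quality wells, open points the others, and the line is the median of all wells. Ren1 separates the genotypes without overlap, Agt is at 0 everywhere, and Agtr1b is at 0 in WT and in YFP2.

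**Figure D2:**
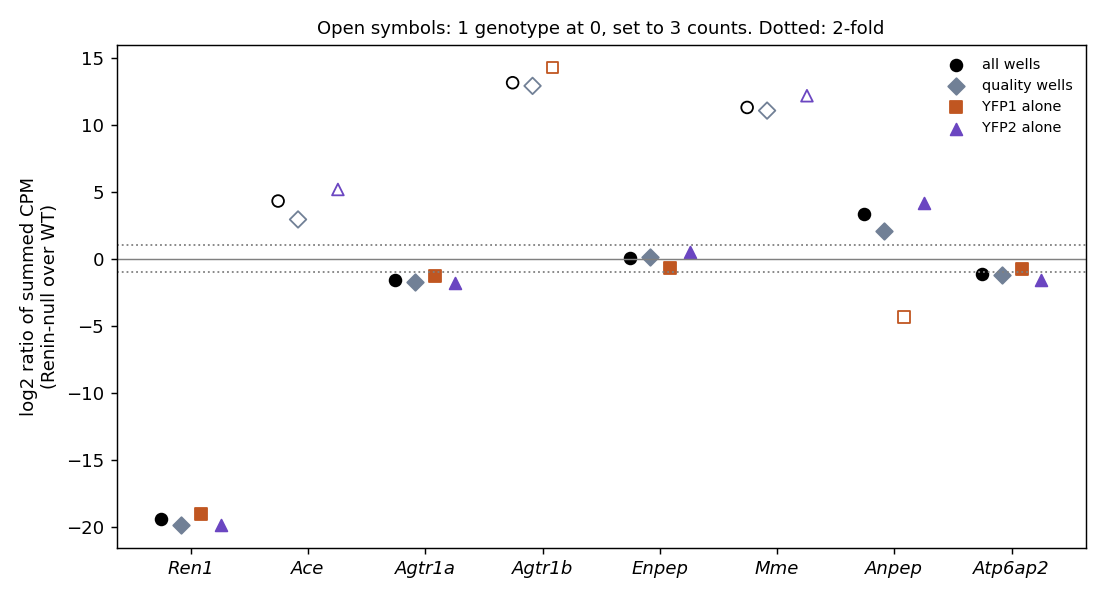
Log2 ratio of summed CPM, Renin-null over WT, for the 8 genes with a ratio, over all wells, quality wells, and with YFP1 or YFP2 alone as the Renin-null cells; open symbols have a genotype at 0, set to 3 counts, and are lower bounds of the size. Anpep lies on opposite sides of 0 in YFP1 and YFP2, and Enpep stays within 2-fold in all 4 settings.

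Ren1, the enzyme that starts the cascade and the gene deleted in the Ren1c-/- mice, lies on chr1:133350510-133360325 (GRCm38, plus strand). The 100 bases before its RefSeq start site (GRCm38.p6, chr1:133350574-133350673, plus strand) are shown because the regulatory sequence of Ren1 drove the YFP by which all cells were sorted, and the capitals mark the letters TATAAA, which begin 29 bases before the start. The 100 bases lie inside the gene coordinates given above, which are from GENCODE and begin further upstream. The distance of 29 bases therefore holds for the RefSeq start only.

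Ren1: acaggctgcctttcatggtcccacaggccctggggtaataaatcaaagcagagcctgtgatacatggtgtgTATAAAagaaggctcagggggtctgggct

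TATAAA was searched on both strands of the 300-base RefSeq promoter windows, and 13.6% of 32851 windows held it. RefSeq windows were matched for 8 of the 9 genes, 11 windows in all, and 5 of the 11 held TATAAA, including that of Ren1. The cAMP response element TGACGTCA was in 1.79% of all windows and in 0 of the 11.

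Ren1 was the most abundant of the 9 genes in WT and close to absent in Renin-null cells. It had 19003442 counts in WT (96023 CPM) and was found in 51 of 51 wells, with 563 CPM in the lowest well, 21402 CPM in the median well and 313965 CPM in the highest. In Renin-null cells it had 54 counts in all (0.135 CPM) in 16 of 96 wells, with at most 17 counts in a well. The genotypes did not overlap, since the highest Renin-null well stood at 12.5 CPM. The log2 ratio was -19.44 (95% exact conditional interval -19.85 to -19.05).

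The level of Ren1 varied widely among WT cells. At or above 100000 CPM stood 9 of 51 wells, 34 reached 10000 CPM and 48 reached 1000 CPM. Among the 15 quality wells the range was 674 to 313965 CPM with a median of 47695 CPM, and 6 of them reached 100000 CPM. The 36 other wells ranged from 563 to 282897 CPM, with a median of 18903 CPM. WT well 43 held 22.6% of all Ren1 counts of the genotype, and 9 wells held 90% of them.

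Over the 15 quality WT wells, the gene whose CPM followed Ren1 most closely was Akr1b7 (Spearman rho 0.90 among 4984 genes with a count in at least 8 of these wells). Next came Fam107b at rho 0.82 and Thoc2, a subunit of the mRNA export complex, at 0.80. These wells share a library and differ in depth, and the genes were ranked by rho, so the values are descriptions. Without the 2 wells highest in Ren1, rho with Akr1b7 was 0.86. In the 36 other WT wells it was 0.29.

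Agt, the gene of the renin substrate angiotensinogen, lies on chr8:124556534-124569706 (minus strand) and had 0 counts in every well of both genotypes. A count of 3, taken as the floor, would be 0.0152 CPM over the WT wells and 0.00752 CPM over the Renin-null wells. Agt transcripts were not detectable at this depth in either genotype, and no ratio was formed. The 0 held also in Renin-null well 19, which had 10363577 counts in all and proximal tubule markers at 14196 CPM. Why Agt had no count was not tested.

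Ace, the converting enzyme gene, lies on chr11:105967945-105989964 (plus strand). It had 0 counts in the 51 WT wells, of which 36 missed the quality limits, and 119 counts in 4 Renin-null wells (0.298 CPM). Set against 3 counts over the WT wells, Ace was at least 19.7-fold higher in Renin-null cells. The bound was 7.59-fold in quality wells and 35.8-fold with YFP2 alone, and YFP1 alone, with 1 count, gave no ratio. On the log2 scale the bound was 4.30 over all wells and 3.27 with near-identical wells counted once. Of the 119 counts, 52 were in well 48 and 65 in well 96. These wells had near-identical profiles, as did 3 other pairs of Renin-null wells, and whether a pair is the same cell deposited again was not tested. With such wells counted once, Ace had a count in 3 of 92 wells. Wells 48 and 96 carried smooth muscle and pericyte markers at 15337 and 11350 CPM beside tubule markers, with proximal tubule sums of 9035 and 6553 CPM and sums of 1890 and 1737 CPM for the loop, distal tubule and collecting duct. In well 48, Slc34a1, the sodium phosphate cotransporter of the proximal tubule, had 451 CPM, and Aqp2, the water channel of the collecting duct, 959 CPM. The part of these other cells in the Ace counts was not tested.

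Agtr1a, on chr13:30336441-30382867 (plus strand), was the more abundant receptor gene in WT. WT wells held 66198 counts (334 CPM), and Renin-null wells 44516 (112 CPM). The log2 ratio was -1.58 (interval -1.60 to -1.57). Levels in WT wells ran from 0.266 CPM through a median of 43.5 CPM to 2471 CPM. In Renin-null wells they ran from 0 through a median of 0.214 CPM to 1495 CPM, so the ranges overlapped over most of their span. The 2471 CPM was 274 counts in WT well 23, which held 110872 counts in all.

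The sum of Agtr1a rested on few cells in both genotypes. A limit of 1000 counts in a well, chosen after the values were seen, was reached by 7 of 51 WT wells, all of them quality wells, and by 8 of 96 Renin-null wells, also all quality wells. In WT these wells held 1349, 2071, 6406, 8090, 12284, 15841 and 16373 counts. In Renin-null cells they held 1833, 9658 and 11049 counts in YFP1 and 1545, 1919, 2785, 3735 and 9010 counts in YFP2. These were 7 of 15 quality wells in WT and 8 of 57 in Renin-null cells. With near-identical wells counted once by their lower-numbered well, 7 of 92 Renin-null wells reached the limit, since well 46 held 676 counts and well 94, which was left out, held 1545. Smooth muscle and pericyte markers were at 12262 to 46041 CPM in 7 of the 8 Renin-null wells and at 401 CPM in well 39. Wells 73 and 87 also held endothelial markers, at 1295 and 1647 CPM, and wells 73, 74 and 85 fibroblast markers, at 3889, 2207 and 3461 CPM, while podocyte markers stood at 3527 CPM in well 87. In the 7 WT wells smooth muscle and pericyte markers were at 4622 to 56415 CPM, WT well 10 also held proximal tubule markers at 2252 CPM, and WT wells 3 and 6 held fibroblast markers at 960.0 and 1213 CPM. With YFP1 alone the log2 ratio was -1.32, and with YFP2 alone -1.84.

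Agtr1b, the second type 1 receptor gene, lies on chr3:20314473-20367177 (minus strand) and showed a pattern of its own. It had 0 counts in all 51 WT wells and 0 counts in all 48 wells of YFP2, but 54029 counts in YFP1 (298 CPM), where 28 wells had a count. Renin-null well 18 held 41215 counts, well 30 held 9873 and well 1 held 2807, together with at most 40 counts in any other well. Against 3 counts over the WT wells, Agtr1b was at least 8937-fold higher in Renin-null cells. The bound was 19646-fold with YFP1 alone, and leaving out the highest well of each genotype brought its log2 from 13.13 to 11.05. The log2 value was 10.15 with SCTransform corrected counts and 6.46 for thinned wells, and the difference in mean log2(CPM + 1) was 0.83. The 8937-fold ratio describes 3 cells of a single library.

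Agtr1a and Agtr1b are close paralogs, so their coding sequences were compared. The coding regions have the same length, 1080 bases with the stop codon, and were identical at 90.8% of positions, with a longest identical run of 66 bases. Of the distinct 31-base words in the GENCODE M21 transcripts, 93 were shared, which is 3.26% of those of Agtr1a and 4.35% of those of Agtr1b. The stretch of 60 bases with the most differences, coding bases 964 to 1023, is shown for both genes with the 13 differing bases in capitals, because reads from such stretches tell the genes apart.

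Agtr1a: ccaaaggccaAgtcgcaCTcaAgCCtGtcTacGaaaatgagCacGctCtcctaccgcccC

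Agtr1b: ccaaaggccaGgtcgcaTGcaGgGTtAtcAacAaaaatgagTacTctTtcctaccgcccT

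Wells high in both paralogs and wells high in only 1 of them were found. Agtr1a had 0 counts in wells 18 and 30, the highest for Agtr1b, while well 1 held 1833 counts of Agtr1a beside 2807 of Agtr1b, and well 3, the highest Renin-null well for Agtr1a with 11049 counts, held 40 of Agtr1b. Agtr1b had 0 counts in each WT well, including WT well 6 with 16373 counts of Agtr1a. All 3 high wells carried smooth muscle and pericyte markers at 46041, 35752 and 29091 CPM in wells 1, 18 and 30, and podocyte sums of 141, 0.939 and 568 CPM.

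Enpep, which removes the first residue of angiotensin II, lies on chr3:129269175-129332720 (minus strand) and had similar sums in the genotypes but unlike medians over wells. WT wells held 40058 counts (202 CPM), and Renin-null wells 85222 (214 CPM). Their log2 ratio was 0.08 (interval 0.06 to 0.10). This was below the median ratio of all genes, 1.17. Its sign depended on the scaling, with -0.62 for TMM factors and -0.76 for median-of-ratios size factors, which shift all genes alike. Some other summaries put Enpep below WT by more than 2-fold. The log2 ratio was -1.76 for the mean CPM over wells and -2.91 for SCTransform corrected counts. For thinned wells, which leave out those too shallow to thin, it was -1.40. The difference in mean log2(CPM + 1) was -4.82. WT wells ran from 0.467 through a median of 108 to 5935 CPM, and Renin-null wells from 0 through a median of 0.266 to 2609 CPM. In quality wells the medians were 37.4 and 0.262 CPM. The log2 ratio was -0.72 with YFP1 alone and 0.51 with YFP2 alone.

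Enpep too came from few cells. In Renin-null cells 7 wells reached 1000 counts. Well 1 of YFP1 held 22283 counts, 99.6% of that library's Enpep, and in YFP2 wells 59, 87, 75 and 89 held 14654, 14419, 14179 and 14004, with 3424 in well 67 and 1008 in well 91. Smooth muscle and pericyte markers were at 12262 to 46041 CPM in 6 of these 7 wells, and at 82.3 CPM in well 59. Podocyte markers stood at 23086 CPM in well 59, 3527 CPM in well 87 and 3190 CPM in well 75, and at 62.2 to 349.8 CPM in the other 4. Wells 67 and 87 held endothelial markers at 1251 and 1647 CPM, and well 89 fibroblast markers at 7890 CPM. In WT 8 wells reached 1000 counts, the highest being well 6 with 15628. Smooth muscle and pericyte markers stood at 3690 to 43877 CPM in 7 of these and at 201 CPM in WT well 31, and WT wells 6 and 10 held the fibroblast and proximal tubule markers given above.

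Mme encodes neprilysin, which cleaves angiotensin I, and lies on chr3:63241537-63386030 (plus strand). No WT well had a count, and Renin-null wells held 15044 (37.7 CPM), of which 95.5% were in well 59 and 645 in well 75. Against 3 counts over the WT wells this was at least 2488-fold higher. With YFP2 alone the bound was 4564-fold, YFP1 had 3 counts and no ratio, and leaving out the highest well brought the log2 bound from 11.28 to 6.82. Well 59 carried Nphs1, a slit diaphragm gene of podocytes, at 4399.8 CPM, and Acta2 and Myh11 at only 11.6 and 13.5 CPM. Well 75 carried podocyte markers at 3190 CPM and smooth muscle and pericyte markers at 36890 CPM.

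Anpep, the aminopeptidase N gene, lies on chr7:79821803-79861059 (minus strand). WT had 66 counts, all in WT well 10 (0.333 CPM over the genotype), a well with proximal tubule markers at 2252 CPM. Renin-null cells had 1305 counts (3.27 CPM) in 5 wells, of which 650 were in well 48 and 649 in well 96, the near-identical wells with tubule markers that also held Ace. YFP1 had 0 counts. The log2 ratio was 3.29 (interval 2.94 to 3.67) over all wells and 2.06 over quality wells. It was 4.17 with YFP2 alone, 4.98 with SCTransform corrected counts and 4.78 for the mean CPM over wells. Without the highest well of each genotype it was 6.76, a bound, since WT then had no count. With YFP1 alone it was below 0, with Anpep at least 20.2-fold lower. Without wells 48, 59 and 96, an alternative chosen after the data were seen, Anpep in Renin-null cells was also lower than in WT, with a log2 ratio of -4.38 that rests on 6 counts in 3 wells.

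Atp6ap2, the (pro)renin receptor gene, lies on chrX:12587801-12617049 (plus strand). WT wells held 33806 counts (170.8 CPM), and Renin-null wells 30664 (76.9 CPM). The log2 ratio was -1.15 (interval -1.17 to -1.13). Levels ran from 0 through a median of 47.5 to 3527 CPM in WT wells and from 0 through 0.529 to 829 CPM in Renin-null wells. Both maxima were in shallow wells. The 3527 CPM was 391 counts in WT well 23, which held 110872 counts in all. The 829 CPM was 5 counts in Renin-null well 28, which held 6029 counts in all and missed the quality limits. Renin-null well 25, with 6126 counts of Atp6ap2, stood at 677 CPM. Among WT wells the median was 4.77 CPM in those of quality and 60.3 CPM in the 36 that missed the limits, and the quality wells of Renin-null mice had a median of 1.03 CPM. At least 1000 counts were found in 4 of 51 and in 7 of 96 wells, or in 6 of 92 Renin-null wells with near-identical wells counted once. Of the 7 wells, 4 held smooth muscle and pericyte markers at 22873 to 45295 CPM. Well 23 held these at 46.8 CPM and markers of the loop, distal tubule and collecting duct at 3871 CPM, well 59 held podocyte markers at 23086 CPM, and well 39 held smooth muscle and pericyte markers at 401 CPM. The 4 WT wells held smooth muscle and pericyte markers at 3690 to 30105 CPM, with endothelial markers at 352 CPM in WT well 43 and podocyte markers at 306 CPM in WT well 18. With YFP1 alone the log2 ratio was -0.78 and without the highest well of each genotype -0.84, both short of 2-fold, and with YFP2 alone it was -1.56. WT well 43 held 35.4% of the WT counts.

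Levels can be ordered between genes only per length, here as CPM per kilobase of annotated exon. In WT the order was Ren1 at 57950, Agtr1a at 120.1, Atp6ap2 at 65.2, Enpep at 43.0 and Anpep at 0.0807 CPM per kilobase, with the other 4 at 0. In Renin-null cells it was Agtr1b at 63.1, Enpep at 45.4, Agtr1a at 40.1, Atp6ap2 at 29.4, Mme at 3.27, Anpep at 0.791, Ren1 at 0.0817 and Ace at 0.0564 CPM per kilobase. The last 2 had overlapping counting intervals. Among Renin-null cells the order was not stable between libraries, since Agtr1b was first in YFP1 and at 0 in YFP2, where Enpep was first at 61.4 CPM per kilobase.

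**Figure D3:**
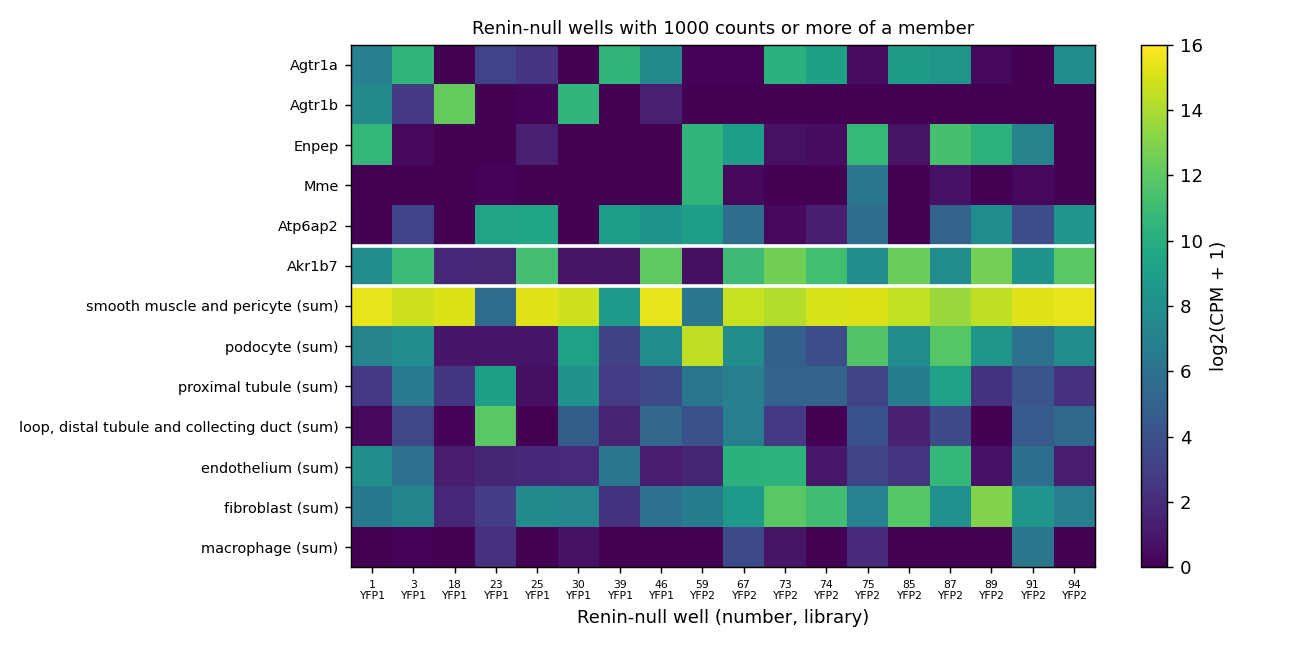
The 18 Renin-null wells with 1000 counts or more of Agtr1a, Agtr1b, Enpep, Mme or Atp6ap2, shown as log2(CPM + 1) for these genes, for Akr1b7 and for the summed markers of 7 cell types. Of the 8 wells high in Agtr1a and the 7 high in Enpep, 2 are the same, and well 59 stands out by its podocyte markers.

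High wells of some genes overlapped and those of others did not. Among the 57 quality Renin-null wells, 8 reached 1000 counts of Agtr1a and 7 of Enpep, and 2 reached both. Agtr1a and Atp6ap2 (7 wells) shared 2, Enpep and Atp6ap2 shared 2, and Agtr1b shared 1 of its 3 wells with Agtr1a and the same number with Enpep. The only well that reached the limit for Mme also reached it for Enpep and for Atp6ap2, but not for Agtr1a or Agtr1b, and Agtr1b and Atp6ap2 shared 0. Among the 15 quality WT wells, 7 reached the limit for Agtr1a and 6 for Enpep, and 3 reached it for both. Of the 3 WT wells high in Atp6ap2, Enpep shared 2 and Agtr1a 1.

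The WT wells that missed the quality limits behaved differently from the quality wells. Agtr1a, Enpep and Atp6ap2 had a count in nearly every WT well, 51, 51 and 50 of 51, against 54, 52 and 55 of 96 Renin-null wells. In the 36 WT wells that missed the limits, the median was 37 counts of Agtr1a, 105.5 of Enpep and 79 of Atp6ap2. Across these wells counts of Agtr1a and Enpep varied together (Spearman rho 0.92), as did those of Agtr1a and Atp6ap2 (0.90) and of Enpep and Atp6ap2 (0.88), and Agtr1a was above Enpep in only 2 of 36. In the 15 quality WT wells rho was -0.03, -0.10 and 0.30, and Agtr1a was above Enpep in 9 of 15. The rho between counts and the total counts of a well was 0.30 for Agtr1a, 0.42 for Enpep and 0.21 for Atp6ap2 in the 36 wells. WT well 12, with 67227 counts in all, had 38 counts of Agtr1a, 73 of Enpep and 104 of Atp6ap2, which scale to 565, 1086 and 1547 CPM.

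**Figure D4:**
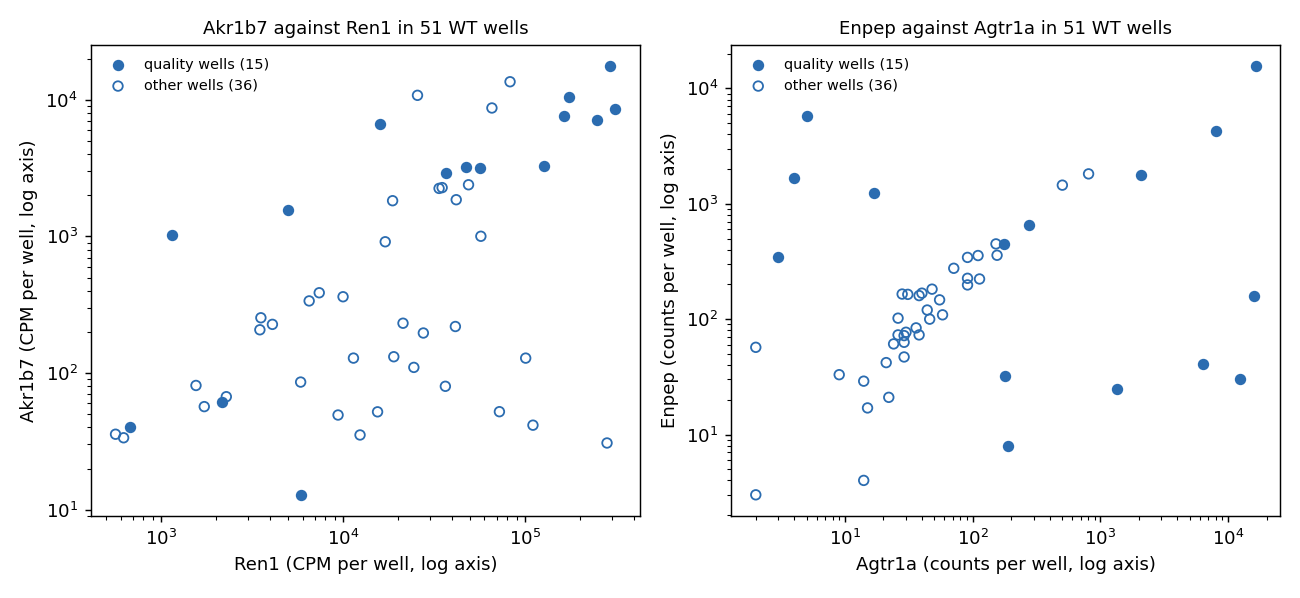
The 51 WT wells, quality wells filled and other wells open, both axes on log scales: Akr1b7 against Ren1 in CPM (left) and Enpep against Agtr1a in counts (right). Akr1b7 follows Ren1 in the 15 quality wells (rho 0.90), and the 36 other wells form a narrow band of Enpep against Agtr1a (rho 0.92) that the quality wells do not follow.

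The shares were also taken after each well was thinned to 62978 counts. Agtr1a then had a count in 35 of 49 WT and 18 of 83 Renin-null wells, Enpep in 43 and 15, and Atp6ap2 in 38 and 22, with 2 WT and 13 Renin-null wells too shallow to enter. Wells that shared an index with the highest well of a library were compared with those that did not. In YFP1, a count of Enpep was found in 3 of 14 wells sharing an index with well 1 and in 13 of 33 others, for Agtr1a, around well 3, in 8 of 14 and 15 of 33, for Atp6ap2, around well 25, in 11 of 14 and 16 of 33, and for Agtr1b, around well 18, in 8 of 14 and 19 of 33. In YFP2, around well 73 for Agtr1a and well 59 for the others, the numbers were 10 of 14 and 18 of 31 for Agtr1a, 12 of 14 and 21 of 31 for Enpep, 9 of 14 and 17 of 31 for Atp6ap2, and 4 of 14 and 8 of 31 for Mme. In WT, where nearly all wells had a count, the median was 36 counts in sharing and 46 in other wells for Agtr1a (around WT well 6), 84 and 165 for Enpep (WT well 6) and 166 and 37.5 for Atp6ap2 (WT well 43). The direction thus differed between genes and libraries, and none of these differences was tested. The source of the low counts was not tested.

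How well single values repeat was read from 4 pairs of Renin-null wells whose profiles were nearly the same (Pearson r of log2(CPM + 1) at least 0.974, the next pair at 0.896). In 3 pairs a well of YFP1 matched a well of YFP2, and in the other both belonged to YFP2. If a pair is the same cell deposited again, its wells are not separate cells, and this was not tested. Wells 46 and 94 held Agtr1a at 184 and 229 CPM, Atp6ap2 at 310.0 and 331 CPM and Akr1b7 at 4254 and 3767 CPM. Agtr1b had 6 counts in well 46 of YFP1 and 0 in well 94 of YFP2, although well 94 was sequenced deeper. In wells 45 and 93, Enpep had 16 counts and 1, and Atp6ap2 32 and 94. Wells 48 and 96 differed more than wells 46 and 94, with Agtr1a at 6.08 and 21.4 CPM (24 and 190 counts), Atp6ap2 at 5.83 and 25.2 CPM (23 and 223 counts), Enpep at 36.5 and 76.97 CPM, Akr1b7 at 3414 and 1828 CPM and Anpep at 165 and 73.2 CPM.

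**Figure D5:**
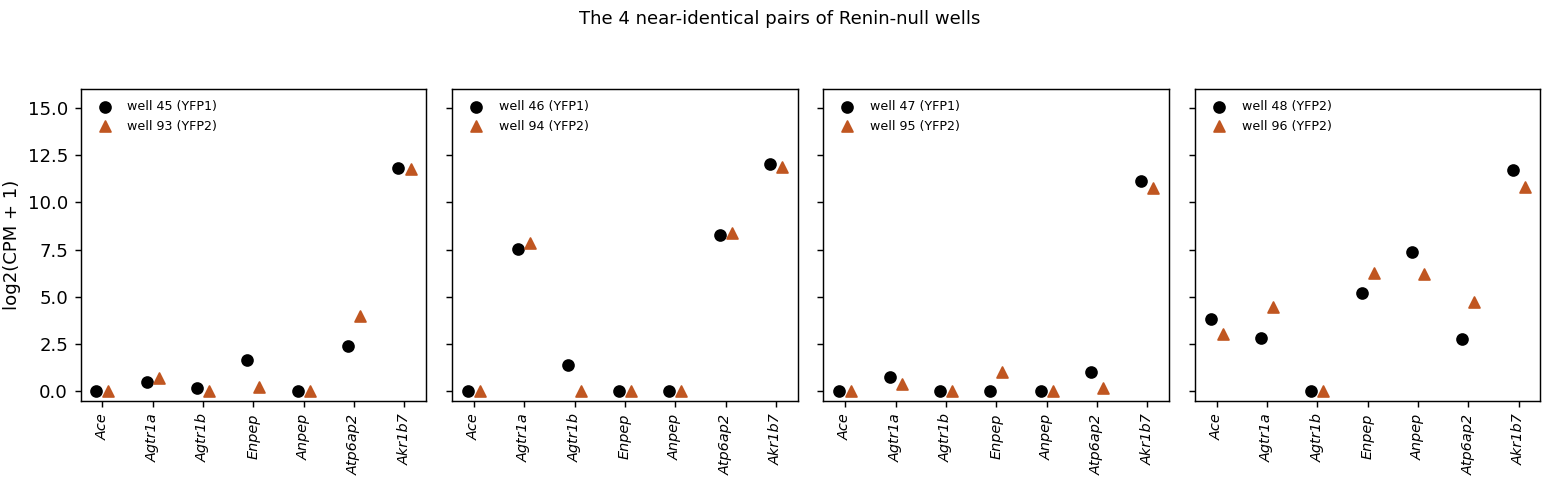
Levels of 7 genes as log2(CPM + 1) in the 4 near-identical pairs of Renin-null wells, circles for the lower-numbered well and triangles for the other. Agtr1a and Atp6ap2 lie close together in wells 46 and 94 but far apart in wells 48 and 96 (Agtr1a at 6.08 and 21.4 CPM), and Agtr1b has counts only in the YFP1 wells 45 and 46.

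In quality wells the genes most like each member were listed by the same rule. In WT, Agtr1a was followed most closely by Cnn2, an actin-binding calponin (rho 0.86), and then by Rpl36a (0.76) and Acin1 (0.67). Enpep was followed by Aak1, a kinase of clathrin adaptors (0.87), Snx10 (0.86) and Trak1 (0.82), and Atp6ap2 by Vps35, a retromer subunit (0.90), Cdk2ap1 (0.88) and Hmgxb4 (0.83). The Renin-null cells gave 54 wells after near-identical wells were counted once, and the highest rho among many genes depends on the number of wells, so these values cannot be set against those of WT. Agtr1a was followed by Gtf3c3 (0.47), Ufd1 (0.44) and Osbpl7 (0.42), Enpep by Plcl1 (0.69), Mcfd2 (0.63) and Arhgap29 (0.61), and Atp6ap2 by Vipas39 (0.70), Ptprf (0.67) and Irak4 (0.63).

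Of 18 further genes of the system, 15 had a ratio, and 7 of them were higher and 2 lower by 2-fold or more in the Renin-null wells, beside 52.4% and 18.5% of all genes. The count lower was 6 with TMM factors, beside 27.2% of all genes, and 4 in quality wells, beside 20.1%. Their median log2 ratio was 0.32, against 1.17 over all genes, and -0.38 against 0.47 with TMM factors. In quality wells it was 0.08 against 1.11. It was 3.29 against 0.71 over all genes with YFP1 alone, where 13 had a ratio, and 1.16 against 0.98 with YFP2 alone. It thus lay below the median of all genes over all wells and in quality wells, and above it in each library taken alone. Mas1, the receptor of angiotensin 1-7, had 0 and 7 counts, and Agtr2, the type 2 receptor gene, had 0 in both.

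The further genes with the highest CPM, a scale that takes no account of length, were Ctsa, Lnpep and Atp6ap1 in WT and Klk1, Ctsa and Atp6ap1 in Renin-null cells. Per length, Ctsa had 52.97, Atp6ap1 29.8 and Lnpep 16.2 CPM per kilobase in WT, and Klk1 had 343 and Atp6ap1 37.3 and Ctsa 26.5 CPM per kilobase in Renin-null cells. Ctsa, a lysosomal carboxypeptidase gene, had 249.8 and 125 CPM, Lnpep, the angiotensin IV binding aminopeptidase, 229 and 113 CPM, and Atp6ap1, a proton pump subunit, 90.3 and 113 CPM. Klk1, tissue kallikrein, had 3.32 and 369.8 CPM, with 90.5% of its Renin-null counts in well 23, the well with 3871 CPM of loop, distal tubule and collecting duct markers. In WT, 99.5% of its counts were in WT well 10, where those markers stood at 307 CPM and proximal tubule markers at 2252 CPM. Klk1 was 228-fold higher with YFP1 alone and 14.4-fold higher with YFP2 alone. Nln, a neurolysin gene, had 0 and 1294 counts and was at least 214-fold higher, a bound of 425-fold with YFP1 alone and 38.2-fold with YFP2 alone, and Ctsg had 6 counts in WT well 35 and 0 in Renin-null cells. Like those of the receptor genes, the Klk1 counts came mostly from few cells, and the levels of Atp6ap1, Lnpep and Ctsa differed between the libraries. Atp6ap1 had a log2 ratio of -3.88 with YFP1 alone and 1.16 with YFP2 alone, Lnpep stood at 44.2 CPM in YFP1 and 169.8 CPM in YFP2, and Ctsa at 181 and 78.4 CPM.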

How the data were processed

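Per the labels and the study's methods, the authors trimmed reads with Trimmomatic, quantified them with Salmon against GRCm38 and summarised them to genes with tximport (lengthScaledTPM). The deposited values are expected counts per gene and well, estimated and not whole, and were rounded to whole numbers here. Well totals ranged from 3628 to 17124854. The 9 genes and all gene lists were chosen with earlier results of these data known.

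Counts were summed over the wells of a genotype and scaled to CPM. Ratios have exact conditional Poisson intervals at 95%, and shares of wells exact Clopper-Pearson intervals. Where a genotype had no count, 3 counts stood in for it, and genes with at most 3 counts in both got no ratio. Genes past 2-fold were counted as higher or lower. Wells are cells, not replicates, so no test was run. The ratio and interval code was tested on simulated data. Named genes were the 9 members, Agtr2, Mas1, the 3 most abundant further genes per genotype and the 2 with the largest ratio in each direction, the most abundant and defining marker genes, and the 3 genes most like each member that had a count in 50% or more of the quality wells. Some genes that the rule names are not reported here. Wells were called near-identical at r of at least 0.95, and 2 Renin-null wells whose title and description give different indices were left out of the index comparison. Alternatives used TMM factors of edgeR 4.0.16 and SCTransform of Seurat 5.3.0. Other steps were run in Python 3.11.15 with scipy 1.17.1. Coordinates and exon lengths are from GENCODE M21, and promoter windows from RefSeq (GRCm38.p6).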

Additional observations from a re-analysis of the deposited data

How the results depend on the processing

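Ren1 and Agtr1a stayed below WT by 2-fold or more under all 15 alternatives (log2 -23.61 to -13.25 and -4.01 to -1.32), and Atp6ap2 under 13 of 15 (log2 -3.40 to -0.78). The count of members at least 2-fold lower was 2 to 4 under every alternative, and it always included Ren1, the deleted gene. The share of all genes that were lower was not constant. Comparing well means on the log2(CPM + 1) scale gave 4 of 8 members, beside 1.9% of all genes. These were Ren1, Agtr1a, Enpep and Atp6ap2. That measure weighs all wells alike, including the 36 WT wells that missed the quality limits. The low counts of Agtr1a, Enpep and Atp6ap2 in those wells have a source that was not tested, so the 4 of 8 cannot be read as a result about the members. Leaving out each genotype's highest well gave 2 of 8, beside 10.85%. Median-of-ratios factors gave 3 of 8, beside 29.7%. The count at least 2-fold higher fell from 4 to 0 with the difference of mean log2(CPM + 1), which shrinks genes found in few wells (9.03% of all genes were higher by that measure), to 1 of 6 with a ratio with YFP1 alone (45.7% of all genes), and to 2 both with only wells of 1000 counts or more and without Renin-null wells 48, 59 and 96 (the last 2 chosen after seeing the data, with 6 and 7 members with a ratio and 53.8% and 51.3% of all genes higher). Anpep was above 0 under 12 of 14 alternatives, up to 6.76. It reversed to -4.33 with YFP1 alone and to -4.38 without wells 48, 59 and 96, since the wells that hold most of its counts are then left out. Enpep was above 0 under 5 alternatives and below 0 under 10 (-4.82 to 0.51). With TMM factors, median-of-ratios factors, and CPM without mitochondrial genes or without Ren1, its sign follows from a shift of all genes alike. TMM factors moved the median of all genes by -0.70 and median-of-ratios factors by -0.84. Of the further genes, 6 with TMM factors and 4 in quality wells were at least 2-fold lower, against 2 of 15 (27.2% and 20.1% of all genes, against 18.5%). Their median went from 0.32 to -0.38 with TMM factors, which shift all genes alike (median of all genes 1.17 and 0.47). It was 3.29 with YFP1 alone, where 13 had a ratio. With at least 100 summed counts, 54.01% of genes were higher and 18.4% lower. Of 72 alternative shares of wells, 31 left the counting interval. No paired analysis was possible because no result comes from a test and wells carry no pairing. Depth limits statements on genes at 0, and a single sample per genotype limits all ratios.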
